A study of Homo sapiens with 47 samples.

Results

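The 48 genes described here act in DNA replication and S phase of the cell cycle, in their control, or in DNA repair. Their RNA was followed in HEK293T cells with and without a mutation of EAF1. The genes were taken by symbol from a list of origin licensing, replication fork, nucleotide supply and S-phase checkpoint genes. The table of the series holds 58395 genes, and all 48 were found in it. HEK293T is a human embryonic kidney cell line that carries adenovirus and SV40 large T sequences, and EAF1 is a subunit of complexes that help RNA polymerase II elongate. The study asked how the Mediator complex and its partners act at genes whose RNAs lack a poly(A) tail, and its RNA-seq compared total RNA, depleted of ribosomal RNA, from wild-type and EAF1-mutant cells. Each group had 3 libraries. Wild-type cells were unedited HEK293T, and EAF1-mutant cells carried a knock-in made with CRISPR that replaces a short run of EAF1 residues with alanines. Per the study's methods the mutant line is 1 clone, so differences between the clone and its parent line that have nothing to do with EAF1 cannot be told apart from those of the mutation. Both groups were grown in DMEM with fetal bovine serum and received no other treatment. Per the study's methods experiments were done as biological replicates, while the labels do not say whether the 3 libraries of a group came from separate cultures. The p-values measure only the spread between these libraries.

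Counts summed to 59137210, 52541541 and 55637032 in replicates 1 to 3 of wild-type cells, and to 57198018, 53369621 and 66611451 in those of EAF1-mutant cells. Levels are normalised read counts on edgeR's CPM scale, each gene's count as a share of a library size that the TMM method had adjusted for composition. Differences are log2 fold changes of EAF1-mutant against wild-type cells from edgeR's quasi-likelihood test, fitted on 28025 genes that passed a filter on low counts, and p-values were adjusted over all of these by the Benjamini-Hochberg method. A gene is said to have risen or fallen at an adjusted p under 0.05. The stricter limit, taken from the study's methods, is an adjusted p under 0.01 with a log2 fold change over 0.5 in size. The depth was high for every member. The lowest count of a member in any library was 839 and the highest was 32741, and the standard errors (SE) of the members' log2 fold changes ran from 0.03 to 0.07.

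As background, a cell loads the MCM2 to MCM7 helicase at its origins in G1 phase, with the origin recognition complex, CDC6 and CDT1. In S phase the kinases CDC7-DBF4 and cyclin-CDK turn the loaded helicase into an active one by adding CDC45 and the GINS complex, and DNA polymerases then copy both strands, held to DNA by the ring-shaped clamp PCNA. Many of these genes are transcribed in late G1 and early S phase under E2F factors, and the checkpoint kinases ATR and CHEK1 slow the process when forks stall.

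EAF1 itself (ENSG00000144597, chromosome 3, 15427598 to 15450635 in GRCh38) had 57.4, 58.3 and 56.4 CPM in the wild-type libraries and 19.6, 17.9 and 18.7 CPM in the EAF1-mutant libraries. All 3 mutant libraries were lower than all 3 wild-type libraries, with a log2 fold change of -1.61 (SE 0.05, adjusted p = 2.46e-18). Replaced residues leave the RNA countable, so this level is no check of the labels. The study's blots found the EAF1 protein little changed. Tested protein-coding genes of the same chromosome arm, 3p, had a median log2 fold change of -0.83, and the 50 such genes within 5 Mb of EAF1 had a median of -1.53. Of 5 genes known to be active in HEK293T cells, LIN28B was the most abundant, with 130.4, 138 and 129 CPM in wild-type cells and 123, 115 and 115 CPM in EAF1-mutant cells. NEFM, a neurofilament gene of the same list, had 56.1, 65.8 and 65.0 CPM in wild-type and 24.6, 25.2 and 25.6 CPM in mutant libraries, with no overlap and a log2 fold change of -1.31. Summed over the 5 genes, the level was 247, 264 and 256 CPM in wild-type libraries and 205, 194 and 196 CPM in mutant libraries. PAX2, a kidney transcription factor gene, stayed near 1 CPM or below in most libraries of both groups, with 0.883, 0.573 and 0.579 CPM in wild-type cells and 0.839, 1.08 and 0.695 CPM in mutant cells. The 7 markers of other cell types summed to 29.3, 31.2 and 28.6 CPM in wild-type libraries and to 35.5, 35.6 and 36.1 CPM in EAF1-mutant libraries. VIL1 made up most of these sums, and CDH17, PTPRC, ALB and PECAM1 were each under 0.2 CPM in every library. The part of either marker list in the results on replication genes was not tested.

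Of the 48 members, 10 rose, 27 fell and 11 did not pass the test. All 48 had passed the filter on low counts. Fewer cells in S phase and less RNA per cell cannot be told apart in bulk RNA, and the phases of these cells were not measured. Among all 28025 genes tested, 25.9% rose and 25.6% fell. Every member had a mean of at least 10 CPM, and of the 11411 tested genes at that level 28.4% rose and 41.3% fell. Past the stricter limit were 5 members in the lower direction, CDC7, POLD3, PCNA, EXO1 and CHEK1, and 1 in the higher direction, E2F1. The shares past this limit were 11.0% higher and 9.36% lower over all tested genes, and 5.35% higher and 11.9% lower among those with at least 10 CPM. The count of 5 lower members is close to these backgrounds, and that of 1 higher member is below them. Without EAF1-mutant replicate 3 the lower count was 3, since POLD3 and CHEK1 came to log2 fold changes of -0.48 and -0.50. DBF4 and CLSPN passed the stricter limit as well without wild-type replicate 3 (-0.52 and -0.51) and with TMM factors taken without 3p, 20p, Xq, 1q and 10p, where the lower count was 7, and CLSPN did without wild-type replicate 1 too (-0.51). The share of all tested genes that were lower was 8.71% without EAF1-mutant replicate 3 and 9.13% without wild-type replicate 3. It was 9.24% without wild-type replicate 1 and 10.4% with those TMM factors. With library totals in place of TMM 2 members, PCNA and EXO1, were lower and 3, E2F1, MCM5 and TYMS, were higher, while 6.58% of all tested genes were lower and 14.9% higher under that scaling. The values of the 2 groups of libraries did not overlap in 40 members, 29 of them lower and 11 higher in EAF1-mutant cells, while they did not overlap in 57.3% of all tested genes and 73.5% of those with at least 10 CPM.

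The changes were small in most members. The median log2 fold change of the 48 was -0.13, with quartiles of -0.37 and 0.06, a lowest value of -0.92 in EXO1 and a highest of 0.56 in E2F1. Over all tested genes the median was 0.01, and over those with at least 10 CPM it was -0.05. Set against the wild-type mean, the median of the members was -0.12, -0.14 and -0.12 in the 3 mutant libraries and between 0.00 and 0.01 in size in the wild-type libraries. The size of the median, and its sign within several roles, depended on the scaling. With library totals in place of TMM the median of all tested genes shifted to 0.13 and that of the members to -0.01, while the members' median minus that of all tested genes was -0.14 under both. The share of rises among the members that passed was then 41.7% in place of 27.0%, and among all genes that passed it was 66.9% in place of 50.3%.

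**Figure D1:**
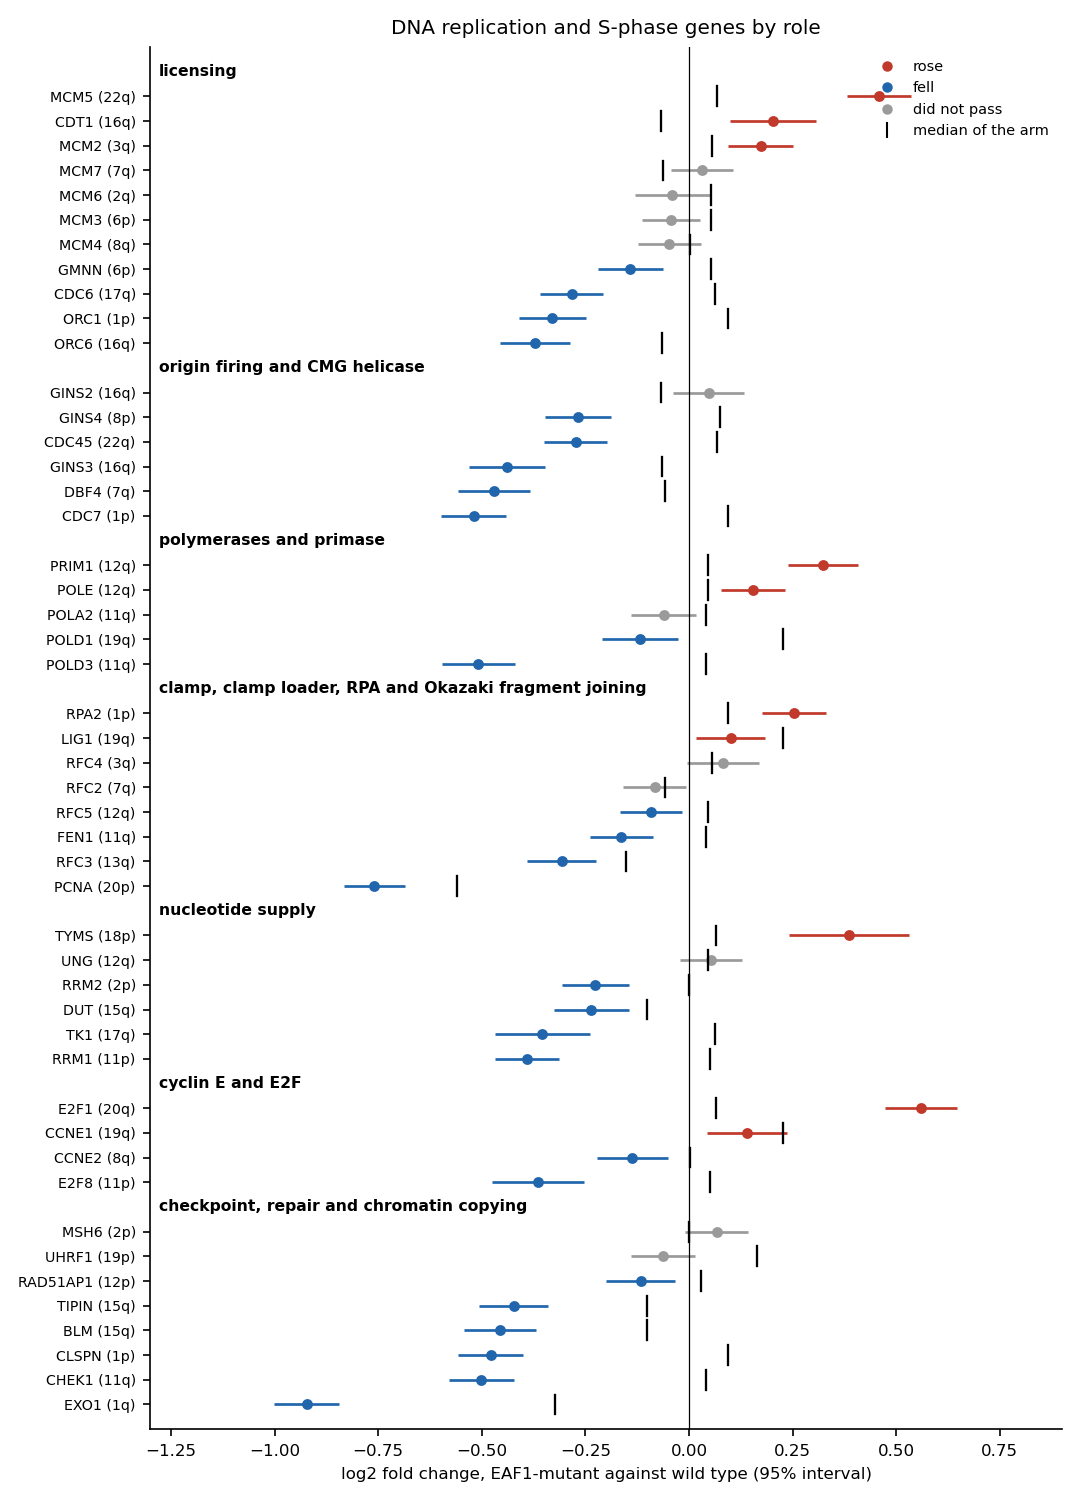
Log2 fold change of each of the 48 members in EAF1-mutant against wild-type cells (points) with its 95% confidence interval (bars), grouped by role, with the chromosome arm in brackets and the median of other tested protein-coding genes of that arm as a black tick. Members that fell are blue (27), those that rose red (10) and those that did not pass grey (11), and with library totals in place of TMM, 21 fell and 15 rose.

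Promoter sequences were looked at for the motif that E2F factors bind, since many of the members are known E2F targets. The search used TTTCCCGC, TTTGGCGC, TTTCGCGC and TTTGCCGC on both strands of RefSeq promoters (GRCh38.p14), each running from 250 bases before to 50 bases after the gene's start, and a motif could overlap another. The table matched 41 of the 48 members, and the others were MCM4, MCM5, GINS4, POLD3, RPA2, CCNE2 and E2F8. A motif stood in 24 of the 41 (58.5%), against 1090 of all 27305 gene symbols in the table (3.99%) and 3.31% of its 35116 windows. It was found in 6 of 8 members that rose, in 10 of 23 that fell and in 8 of 10 that did not pass. The median log2 fold change was -0.05 in members with a motif and -0.23 in those without. Among the members past the stricter limit, CDC7, PCNA, EXO1 and E2F1 had a match. These stretches are shown because they carry the match in the members that changed most, in both directions. Each is written 5′ to 3′ on the gene's strand with the motif in capitals and 10 bases on each side.
CDC7, chr1:91501034-91501061, plus strand: tgcagttcctTTTCCCGCcccccttcgg
CDC7, chr1:91501068-91501095, plus strand: ccgacctgcgGCGGGAAAgtcgcgcgcc
PCNA, chr20:5126664-5126691, minus strand: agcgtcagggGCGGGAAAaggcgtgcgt
EXO1, chr1:241848198-241848225, plus strand: aaggtcagccTTTCGCGCgctgtgtagg
E2F1, chr20:33686401-33686428, minus strand: tggctctttcGCGGCAAAaaggatttgg
E2F1, chr20:33686388-33686415, minus strand: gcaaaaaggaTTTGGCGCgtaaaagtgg
Counted from the first transcribed base as 1, the capitals began at -68 and -34 in CDC7, at -59 in PCNA, at 5 in EXO1, and at -33 and -20 in E2F1. The last 2 windows overlap each other. CHEK1 had no match among these letters. The match is a description of the letters in the window and does not show that a factor binds there.

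Licensing is the loading of the helicase onto origins, and 11 members take part in it. Of these, 3 rose, 4 fell and 4 did not pass, with a median of -0.04, or 0.07 with library totals. The counts of this and each later role stand beside 25.9% of all tested genes that rose and 25.6% that fell. Among tested genes with at least 10 CPM these shares were 28.4% and 41.3%. MCM5 (ENSG00000100297, chromosome 22, 35400134 to 35425431), a subunit of the helicase ring, had 193, 181 and 193 CPM in wild-type libraries and 255, 261 and 263 CPM in EAF1-mutant libraries. Every mutant library was above every wild-type library. The log2 fold change was 0.46 (SE 0.04, adjusted p = 2.97e-10), just short of the stricter limit on size. MCM2, another subunit of the ring, rose less, by 0.17, with 326, 302 and 326 CPM in wild-type and 350.4, 360.0 and 365 CPM in mutant cells. The other 4 subunits did not pass, with log2 fold changes of -0.04 for MCM3, -0.05 for MCM4, -0.04 for MCM6 and 0.03 for MCM7. The median of the 6 subunits was -0.00 with TMM and 0.11 with library totals, where MCM7 rose as well. Without wild-type replicate 1, MCM4 and MCM6 fell, with log2 fold changes of -0.10 and -0.11, so that 6 licensing members fell and the median of the 11 was -0.10. That setting had 24.85% of all tested genes falling.

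The factors that load the ring and their inhibitor were split. ORC6 (ENSG00000091651, chromosome 16, 46689643 to 46698394), the smallest subunit of the origin recognition complex, had 63.4, 63.4 and 59.9 CPM in wild-type libraries and 49.1, 47.8 and 47.4 CPM in mutant libraries, with no overlap. It fell by 0.37 on the log2 scale (SE 0.04, adjusted p = 4.62e-08). ORC1, the largest subunit, fell by 0.33 and CDC6, the loading ATPase, by 0.28. CDT1, which brings the ring to the origin, went the other way, with 56.6, 50.1 and 57.5 CPM in wild-type and 59.2, 64.4 and 65.4 CPM in mutant libraries and a log2 fold change of 0.20 (SE 0.05, adjusted p = 0.00152). GMNN encodes geminin, the inhibitor of CDT1, and it fell from 97.0, 99.8 and 101 CPM to 90.3, 87.7 and 91.7 CPM, a log2 fold change of -0.14. The fall of GMNN was lost with library totals, while the calls of ORC6, ORC1, CDC6 and CDT1 held in all 15 settings run.

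Origin firing turns the loaded ring into a working helicase. Of its 6 members 5 fell, and the other, GINS2, did not pass. The median was -0.36, and with library totals it was -0.24, where the same 5 fell and GINS2 rose. With TMM 25.6% of all tested genes fell, and 41.3% of those with at least 10 CPM. Library totals gave 36.5% of all tested genes that rose and 18.1% that fell. CDC7 (ENSG00000097046, chromosome 1, 91500851 to 91525764), the kinase that triggers firing, had 123, 128 and 124 CPM in the wild-type libraries and 90.0, 85.5 and 86.0 CPM in the mutant libraries. The mutant libraries were all well below the wild-type ones, at 69.8% of their mean. The log2 fold change was -0.52 (SE 0.04, adjusted p = 5.27e-11). DBF4, the subunit that activates CDC7, had 79.5, 79.9 and 75.1 CPM in wild-type and 56.8, 54.1 and 58.3 CPM in mutant libraries, again with no overlap. It fell by 0.47, just short of the stricter limit on size, so both parts of the kinase had less RNA in EAF1-mutant cells.

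CDC45 and the GINS proteins join the MCM ring to make the active helicase. CDC45 fell by 0.27, GINS4 by 0.27 and GINS3 by 0.44. GINS3 had 33.7, 34.4 and 35.0 CPM in wild-type and 24.7, 25.3 and 26.0 CPM in mutant libraries. GINS2 had 68.3, 71.5 and 75.0 CPM and 75.6, 71.7 and 74.7 CPM, which overlap, and did not pass (adjusted p = 0.358 in edgeR). The remaining GINS subunit, GINS1, is among the other genes of the pathway and is described with them.

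Of the 5 members that belong to polymerases and primase, 2 rose, 2 fell and 1 did not pass, with a median of -0.06, or 0.05 with library totals. POLD3 (ENSG00000077514, chromosome 11, 74493851 to 74669117), an accessory subunit of polymerase delta, had 70.6, 71.9 and 69.8 CPM in wild-type libraries and 52.7, 49.0 and 47.5 CPM in mutant libraries. The groups did not overlap, and the log2 fold change was -0.51 (SE 0.04, adjusted p = 5.94e-10), just past the stricter limit. PRIM1 (ENSG00000198056, chromosome 12, 56730438 to 56752374), the catalytic primase subunit that makes the RNA primers, rose from 48.6, 50.0 and 47.8 CPM to 63.1, 59.7 and 60.3 CPM. Its log2 fold change was 0.32 (SE 0.04, adjusted p = 4.26e-07), and some of its annotated exons overlap those of NACA on the same strand. POLE, the catalytic subunit of polymerase epsilon on the leading strand, rose by 0.15. POLD1, the catalytic subunit of polymerase delta, fell by 0.12, but its libraries overlapped, at 107, 94.0 and 105 CPM in wild-type and 91.7, 95.4 and 95.3 CPM in mutant cells. The fall of POLD1 was lost when any 1 library other than wild-type replicate 2 was left out, where its log2 fold change ran from -0.13 to -0.09, while without that replicate it was -0.18. It was lost as well with library totals and with a filter at a mean of 1 CPM. POLA2, a subunit of polymerase alpha, had a log2 fold change of -0.06 and did not pass, but it fell when the TMM factors were taken without 3p, 20p, Xq, 1q and 10p. Some annotated exons of POLD3 overlap those of LIPT2-AS1 on the same strand, and those of POLD1 overlap a gene without a symbol.

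Among the 8 members that form the clamp, load it, cover single strands or join Okazaki fragments, 2 rose, 4 fell and 2 did not pass, with a median of -0.09, or 0.03 with library totals. PCNA (ENSG00000132646, chromosome 20, 5114953 to 5126626), the clamp, had 224, 229 and 224 CPM in the 3 wild-type libraries and 135, 131 and 133 CPM in the 3 mutant libraries. This is 59.1% of the wild-type mean, and the spread within each group was far smaller than the gap between them. The log2 fold change was -0.76 (SE 0.04, adjusted p = 1.70e-14). PCNA lies on 20p, whose other genes had a median of -0.56. Copies named PCNAP1, PCNAP3 and PCNAP4 are annotated as well, and how reads shared with such copies were counted is not given in the sources used here.

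RPA2 (ENSG00000117748, chromosome 1, 27891524 to 27914746), the middle subunit of the protein that covers single-stranded DNA, had 106, 107 and 105 CPM in wild-type and 129.9, 122 and 128 CPM in mutant libraries. It rose in all 3 mutant libraries relative to all wild-type libraries, with a log2 fold change of 0.25 (SE 0.04, adjusted p = 4.29e-06). The clamp loader subunits did not all get the same call, and differences between them were not tested. RFC3 fell by 0.31 and RFC5 by 0.09, while RFC2 (-0.08) and RFC4 (0.08) did not pass, and with library totals RFC4 rose and RFC5 no longer fell. RFC4 also rose with a filter at a mean of 1 CPM and with protein-coding genes only. RFC2 fell with DESeq2, with TMM factors taken without 3p, 20p, Xq, 1q and 10p, and without wild-type replicate 2 (-0.10) or 3 (-0.11). With any 1 of the EAF1-mutant libraries left out RFC5 did not pass either, with log2 fold changes from -0.10 to -0.09, nor did it with the replicate block, with no filter on low counts or with a filter at a mean of 1 CPM. FEN1, the nuclease that trims Okazaki fragments, fell by 0.16, a call lost with library totals, and some of its annotated exons overlap those of FADS2 on the same strand. LIG1, the ligase that seals them, rose by 0.10 (adjusted p = 0.0394 in edgeR), and this call was lost with DESeq2, with no filter on low counts, with TMM factors taken without those 5 arms and when any 1 library was left out, where the log2 fold change ran from 0.06 to 0.11.

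Nucleotide supply was represented by 6 members, of which 1 rose, 4 fell and 1 did not pass, with a median of -0.23, or -0.12 with library totals. RRM1 (ENSG00000167325, chromosome 11, 4094707 to 4138932), the large subunit of ribonucleotide reductase, had 260.0, 266 and 256 CPM in wild-type libraries and 207, 191 and 199 CPM in mutant libraries. The mutant libraries were all lower, with a log2 fold change of -0.39 (SE 0.04, adjusted p = 5.06e-09). RRM2, the small subunit that is made in S phase, had 190.3, 209.8 and 204 CPM and 176, 168 and 172 CPM, and fell by 0.23. TK1, the thymidine kinase of cycling cells, fell by 0.35 and DUT, the dUTPase that keeps uracil out of DNA, by 0.24.

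TYMS (ENSG00000176890, chromosome 18, 657653 to 673578), the thymidylate synthase, was the member of this role that rose with TMM. It had 30.8, 39.5 and 41.1 CPM in wild-type libraries and 45.5, 50.2 and 49.7 CPM in mutant libraries. Wild-type replicate 1 was lower than the other 2, but all mutant libraries lay above all wild-type ones. The log2 fold change was 0.39 (SE 0.07, adjusted p = 5.74e-05), and without wild-type replicate 1 it was 0.25. The exons of TYMS overlap those of ENOSF1 and TYMSOS on the opposite strand. UNG, which removes uracil from DNA, had a log2 fold change of 0.05 and did not pass with TMM, while it rose with library totals.

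The 4 members named for cyclin E and E2F were split, with 2 that rose and 2 that fell, and a median of 0.00, or 0.12 with library totals. E2F1 (ENSG00000101412, chromosome 20, 33675477 to 33686385), an activating E2F factor, had 43.4, 40.3 and 43.8 CPM in wild-type libraries and 61.8, 62.2 and 63.7 CPM in mutant libraries. The mutant libraries were at 147% of the wild-type mean, with no overlap. Its log2 fold change of 0.56 (SE 0.04, adjusted p = 9.11e-11) was the largest rise of the 48. E2F8 (ENSG00000129173, chromosome 11, 19224063 to 19241620), a repressing E2F factor, moved the other way, from 18.4, 19.8 and 20.1 CPM to 14.8, 15.1 and 15.4 CPM. It fell by 0.36 (SE 0.05, adjusted p = 3.81e-06). The cyclin E genes changed less and in opposite directions, with log2 fold changes of 0.14 for CCNE1 and -0.14 for CCNE2. The fall of CCNE2 was lost with library totals. The rise of CCNE1 was lost with DESeq2, with TMM factors taken without 3p, 20p, Xq, 1q and 10p, and when wild-type replicate 2 or 3 or EAF1-mutant replicate 1 or 3 was left out, where its log2 fold change ran from 0.11 to 0.14.

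Checkpoint, repair and chromatin copying genes had the lowest median of any role, -0.44, or -0.32 with library totals, also the lowest there. Of its 8 members 6 fell, and the other 2, MSH6 and UHRF1, did not pass, while with library totals MSH6 rose and RAD51AP1 no longer fell. With TMM 25.6% of all tested genes fell, and 41.3% of those with at least 10 CPM. Library totals gave 36.5% of all tested genes that rose and 18.1% that fell. EXO1 (ENSG00000174371, chromosome 1, 241847967 to 241895148), a nuclease of mismatch repair and of resection at breaks, had 162, 169 and 159 CPM in wild-type libraries and 88.0, 85.0 and 85.3 CPM in mutant libraries. The mutant libraries were at 52.7% of the wild-type mean. The log2 fold change was -0.92 (SE 0.04, adjusted p = 1.70e-15), the largest fall of the 48. EXO1 lies on 1q, whose other genes had a median of -0.32. CHEK1 (ENSG00000149554, chromosome 11, 125625163 to 125676255), the kinase that acts below ATR, had 73.0, 72.4 and 72.9 CPM in wild-type and 51.7, 51.4 and 51.1 CPM in mutant libraries. The replicates of each group lay close together, and the log2 fold change was -0.50 (SE 0.04, adjusted p = 9.30e-11), at the edge of the stricter limit. Some of its annotated exons overlap those of STT3A on the same strand.

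CLSPN and TIPIN work with CHEK1 at the fork. CLSPN encodes claspin, the adaptor through which ATR activates CHEK1, and had 128, 136 and 129 CPM in wild-type and 96.4, 92.9 and 92.9 CPM in mutant libraries. It fell by 0.48, just short of the stricter limit on size. TIPIN, a part of the fork protection complex, fell from 61.7, 63.4 and 60.9 CPM to 47.6, 44.8 and 46.3 CPM, a log2 fold change of -0.42. BLM, a helicase of recombination, fell by 0.46. RAD51AP1, of homologous recombination, fell by 0.12, a call lost with library totals and without EAF1-mutant replicate 2 (-0.10) or 3 (-0.11). MSH6, of mismatch recognition, and UHRF1, which guides DNA methylation to new strands, did not pass, with log2 fold changes of 0.07 and -0.06. UHRF1 fell without wild-type replicate 2 (-0.09) and with TMM factors taken without 3p, 20p, Xq, 1q and 10p.

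**Figure D2:**
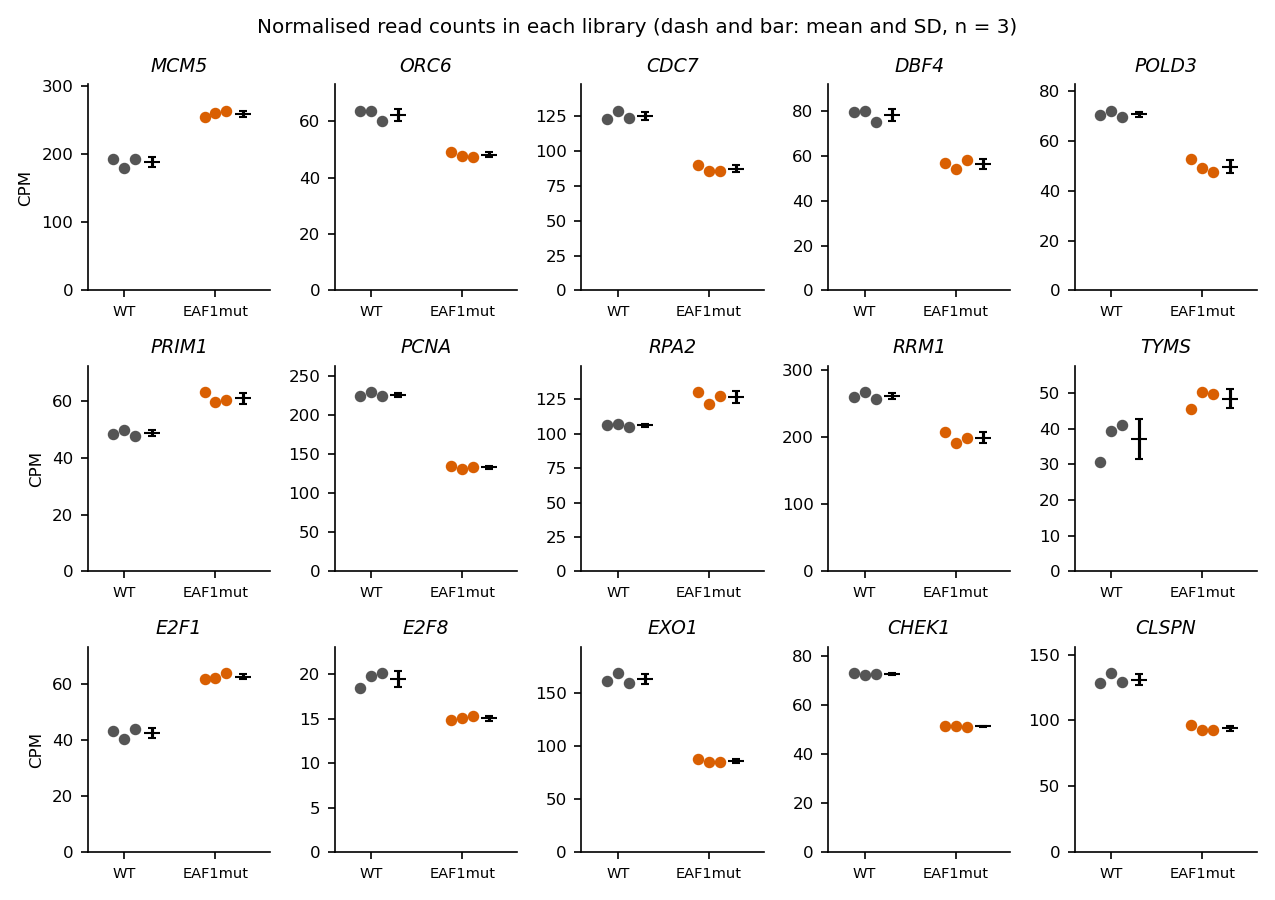
Normalised read counts (CPM, axis from 0) of 15 members in each of the 3 wild-type (grey) and 3 EAF1-mutant (orange) libraries, with the mean and SD beside them. In every panel the mutant libraries lie all above (MCM5, PRIM1, RPA2, TYMS, E2F1) or all below the wild-type ones, and TYMS has the widest wild-type spread relative to its mean.

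The chromosomal surroundings of the members were compared with the members themselves, since some arms had a median far from that of all tested genes, such as 3p at -0.83. The members lie on 23 chromosome arms, and for each the median log2 fold change of the other tested protein-coding genes of its arm was taken. Only 2 of the 48 lay on an arm with a median over 0.25 in size, PCNA on 20p and EXO1 on 1q. The arm medians of the other 46 ran from -0.15 to 0.23. PCNA was 0.20 below its arm, which had 127 other genes, and EXO1 was 0.60 below its arm, which had 671. Of the 48 members, 35 were below the median of their arm and 13 above it, and the median difference was -0.15. The arm medians cover genes of all levels, while every member had at least 10 CPM. Of all tested genes at that level, 56.5% had a log2 fold change below 0, against 49.5% of tested protein-coding genes. How many other genes at that level lay below their arm was not counted. Gene copy number was not measured in these cells, and its part in the members' levels was not tested.

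A closer view, with genes within 5 Mb on each side in place of the arm, gave the same median difference of -0.15 but changed the picture for CDC7. The 48 tested protein-coding genes around CDC7 had a median of -0.45, although their arm, 1p, had 0.09. Of these 48, 38 fell and 3 rose, so CDC7 was 0.07 below its neighbours and 0.61 below its arm. Around PCNA, 55 of 70 genes fell, with a median of -0.57, and PCNA was 0.19 below it. EXO1 stayed 0.61 below the 27 genes around it, which had a median of -0.31. POLD3 and CHEK1 lay among genes with medians of 0.04 and -0.00, and E2F1 among genes with a median of 0.07. The genes around these 3 members thus had medians near 0. BLM and MCM4 were the other members with a surrounding median of 0.25 or more in size, at -0.25 and 0.27, and they differed from it by -0.21 and -0.32.

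**Figure D3:**
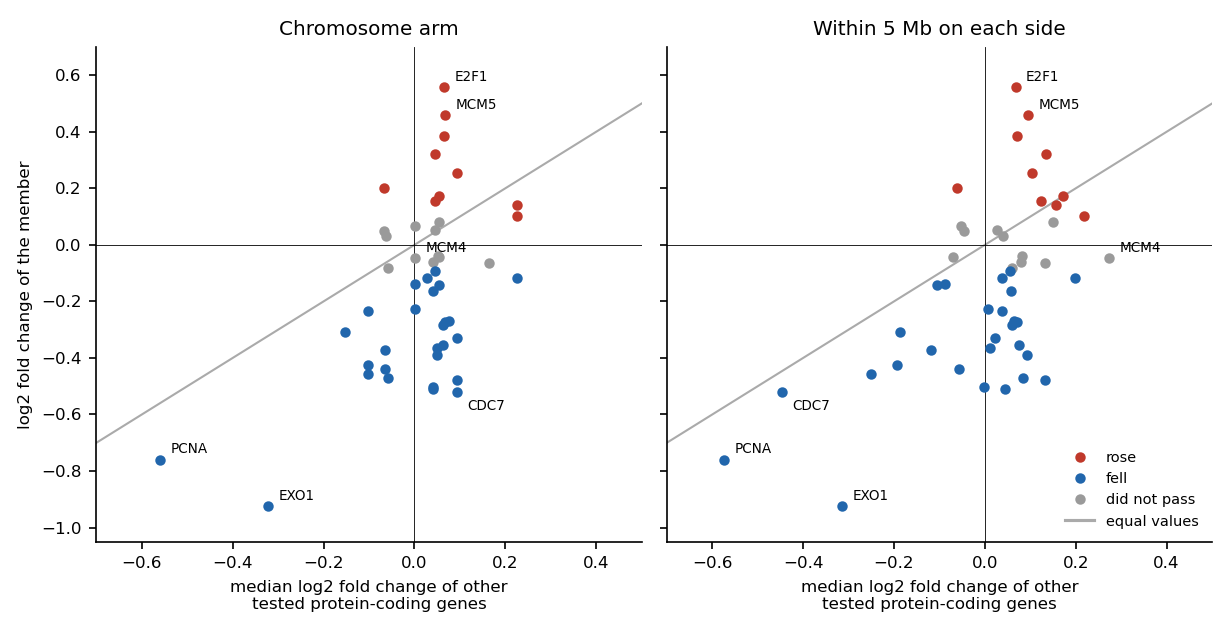
Log2 fold change of each member (vertical axis) against the median log2 fold change of other tested protein-coding genes of its chromosome arm (left) or within 5 Mb on each side (right), coloured by whether the member rose, fell or did not pass. The grey line marks equal values; 35 members lie below it on the left and 36 on the right, and CDC7 lies close to it on the right only.

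Levels per length of exons, in CPM per kilobase, show how the members compare with each other within a group. The exon lengths are the merged exons of all annotated transcripts, so a gene with long rare exons is understated. In wild-type cells PCNA was the highest at 161 CPM per kilobase, followed by MCM7 at 92.3 and MCM3 at 87.1, and E2F8 was the lowest at 4.71. In EAF1-mutant cells PCNA was at 94.8, next to MCM7 at 94.2, and the per-library values of these genes overlapped there but not in wild-type cells. The subunits of the MCM ring are present once each in the complex, while their RNA levels per length in wild-type cells ran from 26.0 for MCM5 to 92.3 for MCM7. This range depends on the merged lengths, 7268 bases for MCM5, 4960 for MCM7 and 9852 for MCM4. MCM4 and MCM7 had 454 and 458 CPM in wild-type cells, but 46.0 and 92.3 CPM per kilobase. In mutant cells MCM5 was at 35.8, near MCM6 at 37.5. Among the GINS members, GINS2 was at 22.2, GINS4 at 13.9 and GINS3 at 6.73 CPM per kilobase in wild-type cells.

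Other genes of the pathway were listed by role from the same textbook steps, beside the 48. All 82 passed the filter, and 20 rose, 34 fell and 28 did not pass. This is close to the 28.4% that rose and 41.3% that fell among tested genes with at least 10 CPM, while among all tested genes 25.9% rose and 25.6% fell. The median of the 82 was -0.05, or 0.07 with library totals, where 40 rose and 23 fell, beside 36.5% and 18.1% of all tested genes under that scaling. Past the stricter limit, 8 were lower and 4 higher. The shares at that limit were 9.36% lower and 11.0% higher among all tested genes, and 11.9% lower and 5.35% higher among those with at least 10 CPM, a level that not every gene of the 82 reached. Of the 8 lower genes, 7 lay among genes whose median within 5 Mb was below -0.25 and 5 on arms with a median below it. Of all 1722 protein-coding genes lower past this limit, 66.1% had such a median within 5 Mb and 43.4% on their arm. Of the 4 higher genes, 1 lay among genes with a median within 5 Mb above 0.25, against 13.5% of all 1907 protein-coding genes higher past the limit. On arms with a median above 0.25 lay 0 of the 4 and 0 of the 1907. FANCD2, the Fanconi anaemia protein that protects forks, had 176, 183 and 176 CPM in wild-type and 52.9, 51.6 and 51.4 CPM in mutant libraries. This fall, a log2 fold change of -1.78 (SE 0.04, adjusted p = 2.36e-20), was set in a stretch of 3p where 62 of 66 genes fell, with a median of -1.63. ATRIP, the partner of ATR, lies on 3p as well, and had 41.3, 35.7 and 39.7 CPM in wild-type and 20.6, 20.5 and 20.2 CPM in mutant libraries. The groups did not overlap, and the log2 fold change was -0.93 (SE 0.05, adjusted p = 3.82e-13), beside a median of -0.79 for the genes within 5 Mb.

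GINS1 and MCM8, a helicase of recombination, are on 20p like PCNA. GINS1 had 75.0, 79.7 and 76.1 CPM in wild-type and 36.1, 33.7 and 34.2 CPM in mutant libraries. Its log2 fold change of -1.15 (SE 0.04, adjusted p = 2.85e-16) was 0.59 below the median of its arm, and it makes the GINS complex one in which 3 of the 4 genes fell in EAF1-mutant cells. This count stands beside 25.6% of all tested genes that fell, and 41.3% of those with at least 10 CPM. MCM8 had 140.5, 140.2 and 138 CPM in wild-type and 79.0, 78.8 and 78.0 CPM in mutant libraries. It fell by 0.83 (SE 0.04, adjusted p = 4.89e-15), or 0.27 below its arm. MCM10, which helps start the helicase, lies on 10p and had 130.2, 134 and 126 CPM in wild-type and 77.1, 73.9 and 76.5 CPM in mutant libraries. All mutant libraries were lower, with a log2 fold change of -0.78 (SE 0.04, adjusted p = 4.78e-14), beside a median of -0.51 for the genes within 5 Mb. The other 3 lower genes lie outside the 5 largest falls and were chosen after their values were seen. They were WDHD1 (-0.70), POLE2 (-0.60) and DNA2 (-0.56), and with library totals POLE2 and DNA2 fell but were within the stricter limit on size. WDHD1 and POLE2 lie on 14q among genes with medians of -0.59 and -0.60, and DNA2 on 10q among genes with a median of 0.03.

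The largest rise in the pathway was that of CDKN1A, which encodes the CDK inhibitor p21, a protein that also binds PCNA. It had 10.5, 9.59 and 11.2 CPM in wild-type libraries and 45.5, 44.7 and 44.3 CPM in mutant libraries. The mutant libraries were about the same and all far above the wild-type ones, with a log2 fold change of 2.10 (SE 0.05, adjusted p = 3.79e-19). CDKN1C, which encodes the related inhibitor p57, rose from 3.22, 2.57 and 2.80 CPM to 5.18, 4.78 and 5.06 CPM, a log2 fold change of 0.80. POLD4, the smallest subunit of polymerase delta, rose from 4.03, 3.87 and 3.92 CPM to 6.78, 6.81 and 6.87 CPM, a change of 0.79 in the direction opposite to that of POLD3. TIMELESS, the partner of TIPIN in the fork protection complex, had 96.3, 118 and 122 CPM in wild-type and 152, 171 and 172 CPM in mutant libraries. Wild-type replicate 1 was low for TIMELESS, as it was for TYMS, and the log2 fold change was 0.56 with all libraries and 0.44 without that one. RRM2B, another small subunit of ribonucleotide reductase, rose by 0.34, while RRM1 and RRM2 fell. RRM2B was within the stricter limit on size and was chosen after its value was seen.

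**Figure D4:**
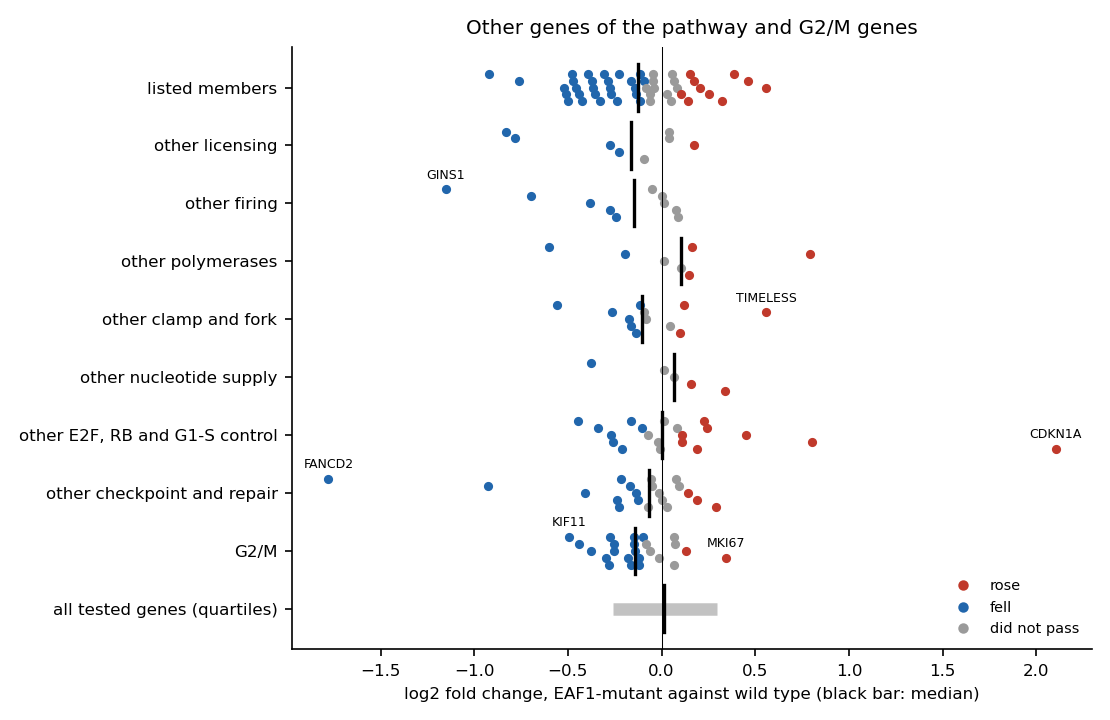
Log2 fold change in EAF1-mutant against wild-type cells of the 48 members, of 82 other genes of the pathway in 7 lists and of 24 G2/M genes (points, coloured by whether they rose, fell or did not pass), with the median of each list as a black bar and the quartiles of all 28025 tested genes as a grey bar. The members' median is -0.13, CDKN1A and FANCD2 lie far out on either side, and with library totals the median of the other pathway genes is 0.07 in place of -0.05.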

How the data were processed

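The authors sequenced ribosomal RNA-depleted total RNA as 100-base read pairs, aligned reads to GRCh38 with HISAT2 and counted them per gene with Rsubread, and the deposited counts are integers per Ensembl gene. Strand and multi-mapping settings of the counting are not stated. Counts of 58395 genes were fitted in edgeR 4.0.16 (R 4.3.3) with TMM factors, filterByExpr, and quasi-likelihood tests of EAF1-mutant against wild-type libraries, 3 each, adjusted by Benjamini-Hochberg over 28025 genes. Symbols, arms and exon lengths came from GENCODE 44, which held 57754 of the identifiers, and promoters from RefSeq. Members and gene lists were chosen with earlier results of these data known, and a few listed pathway genes were left out of the counts for reasons other than their values. Full values are given for members past the stricter limit, for the largest rise and fall in each role among those that passed, for members on arms with a median over 0.25 in size, for EAF1, and for up to 5 other pathway genes past the stricter limit in each direction. Members near that limit are described as well. Alternatives were DESeq2 1.42.0, library totals, RLE factors, other filters, TMM without 5 chromosome arms, a replicate block, and each library left out.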

Additional observations from a re-analysis of the deposited data

How the results depend on the processing

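With library totals in place of TMM, 3 members were higher and 2 lower at the stricter limit, and the members' median was -0.012. Of all tested genes 14.9% were then higher and 6.58% lower, against 11.0% and 9.36% with TMM. With a mean of at least 1 CPM the lower count was 3 and the median -0.11, while 10.7% of all genes tested there were lower. With protein-coding genes only the lower count was 3 (CDC7, PCNA and EXO1), while 10.8% of all genes tested there were lower. Leaving PCNA and EXO1 out of the list, chosen after seeing the data, left 3 others (CDC7, POLD3 and CHEK1). With TMM factors taken without 3p, 20p, Xq, 1q and 10p the lower count was 7 and the median -0.16. Of all tested genes 10.4% were lower in that setting. Leaving out 1 library at a time gave lower counts from 3 (EAF1-mutant replicate 3) to 7 (wild-type replicate 3) and medians from -0.15 to -0.13. The share of all tested genes that were lower was 8.71% without EAF1-mutant replicate 3 and 9.13% without wild-type replicate 3. Library totals take out the composition factors, and leaving out PCNA and EXO1 takes out 2 of the 5 genes counted; the cause of the other changes was not tested. With the replicate block, 10 members rose and 26 fell (RFC5 did not pass), with a median of -0.13. Of all tested genes 25.6% rose and 25.2% fell there. The deviations of libraries with the same number correlated between -0.02 and 0.01, and those with different numbers between -0.03 and 0.03. Such values cannot tell whether libraries with the same number were prepared together. Over 14 other settings, 322 of 322 gene and setting pairs of 23 named genes kept their direction and their side of an adjusted p of 0.05, as genes chosen for their large changes mostly would. In all 15 settings, 8 members rose and 21 fell, and no member rose in one of them and fell in another. The same was not counted over all tested genes. A biological coefficient of variation of 4.11% lets small differences pass, so the number that passed says little of their size. The counts hold no measure of cell cycle phase, of the members' proteins or of gene copy number, and 1 clone was compared with its parent line.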

Other observations

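Genes that act later in the cell cycle, in G2 phase and mitosis, were counted in the same libraries. Of 24 such genes 2 rose, 16 fell and 6 did not pass, with a median log2 fold change of -0.14, or -0.03 with library totals, where 6 rose and 8 fell. With TMM 25.9% of all tested genes rose and 25.6% fell, and 28.4% and 41.3% of those with at least 10 CPM, while with library totals 36.5% of all tested genes rose and 18.1% fell. KIF11, the motor that separates the spindle poles, had 133, 144 and 141 CPM in wild-type and 102, 94.1 and 101 CPM in EAF1-mutant libraries. Its mutant libraries were all lower, with a log2 fold change of -0.49. KIF23, a motor needed for cell division, had 133, 133 and 129 CPM and 98.3, 94.8 and 97.4 CPM, a log2 fold change of -0.44, again with no overlap. BIRC5, which encodes survivin, had 132, 134 and 131 CPM and 105, 97.7 and 104 CPM, a log2 fold change of -0.38. The 2 that rose were MKI67, the gene of the Ki-67 protein of cycling cells, and NDC80, of the kinetochore. MKI67 had 204, 236 and 246 CPM in wild-type and 281, 298 and 291 CPM in mutant libraries, a log2 fold change of 0.34. Wild-type replicate 1 was low for MKI67 too, and without it the log2 fold change was 0.25. That of NDC80 was 0.13 with all libraries. The rise of NDC80 was lost with DESeq2, with TMM factors taken without 3p, 20p, Xq, 1q and 10p, and without wild-type replicate 3 (0.06), EAF1-mutant replicate 1 (0.11) or EAF1-mutant replicate 3 (0.13). These genes were chosen for description after their values were seen.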
